A study of Mus musculus with 3 samples.

Results

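Cytosolic ribosomal proteins are the partners of ribosomal RNA in the ribosome, and their genes were followed here as 1 family across the cell types of adult mouse cochlear explants. Members were taken by gene symbol: Rpl or Rps followed by a digit, Rplp, or Rpsa, leaving out 10 Rps6k kinase genes and 9 pseudogenes whose symbols carry -ps. The rule took 86 of the 31053 genes in the count matrices. Of these, 77 are the ribosomal protein genes proper, 31 of the small subunit, 43 of the large subunit and the 3 stalk genes Rplp0, Rplp1 and Rplp2. A further 8 are like-paralogs (Rpl22l1, Rpl39l, Rps27l, Rps27rt, Rpl3l, Rpl7l1, Rpl10l and Rpl36al) and are described apart. The last, Rps19bp1, encodes a protein named for binding Rps19 and is not counted in the family. The 77 genes lie on 19 chromosomes, with 14 on chromosome 7.

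The explants came from mice of 4 to 6 weeks that carried rtTA, a transcription factor that binds DNA when doxycycline (Dox) is present, together with tet-on-Myc and tet-on-NICD, transgenes for the transcription factor MYC and for the intracellular domain of Notch. Dox was added at 2 µg/ml over 4 days, with sterile water in the control cultures, so both groups carried every transgene. Sensory epithelium was dissected, dissociated with trypsin and counted as single cells, with 1 control library and 2 Dox libraries, each pooled from 4 cultures. The promoter that drives rtTA is not given in the labels, and no Dox-treated culture without the transgenes was analysed here, so effects of the drug and of the transgenes cannot be told apart.

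A ribosome needs close to equal numbers of each of its proteins, and cells coordinate these genes at several levels. Their mRNAs are short, very abundant and begin with a run of pyrimidines, the terminal oligopyrimidine tract, through which mTOR signalling and the protein Larp1 set how strongly they are translated. MYC is a textbook regulator of ribosome production, acting on genes of ribosomal RNA synthesis, ribosome assembly and ribosomal proteins.

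The libraries held 5436731 UMIs (unique molecular identifiers, each marking 1 captured RNA molecule) in 512 barcodes for the control, 20309102 in 788 for Dox 1 and 33385927 in 1095 for Dox 2. After filters 363, 636 and 997 cells remained. The median UMIs per cell were 6887 in the control, 16724.5 in Dox 1 and 27579 in Dox 2. Cells with little Malat1, a nuclear RNA, made up 15.98%, 31.8% and 16.05% of the kept cells. Malat1 itself took a median 2.61% of a cell's UMIs in the control against 1.04% and 0.99% in the Dox libraries. Cell barcodes were shared between libraries: 125 occurred in more than 1 library and 68 in all 3. In 193 kept cells (80 control, 41 Dox 1 and 72 Dox 2), the barcode was far deeper in another library, the cell holding 0.259% to 1.68% of the UMIs seen there. These low-depth copies stayed in, and values are given with and without them where they touch a result. Summed over all cells, Notch1 stood at 38.1 CPM in the control, 455.7 in Dox 1 and 354.5 in Dox 2. CPM are counts relative to the library total, the totals adjusted by the TMM factors of edgeR. Myc stood at 33.0, 64.4 and 57.2 CPM, so both genes were higher in both Dox libraries. How much of these counts came from the transgenes was not tested.

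Cells were grouped by clustering without the member genes, and 4 classes had at least 20 cells in each library. Supporting cell-like cells, the epithelium around the hair cells, led with Rorb, Gjb2, Gjb6, Fabp7, Otog, Lfng, Sox2 and Hes5. Among these, Lfng and Hes5 are known Notch targets, and whether the treatment moved cells into the class was not tested. Glia-like cells led with genes that include Pmp22, Cdh19 and Foxd3, macrophage-like cells with Lyz2, C1qa, C1qb, C1qc and Ptprc, and fibroblast-like cells with Dcn, Col1a2 and Col3a1, next to Coch and Col2a1. No cluster had enough hair cell markers to be named for them.

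The family took up a larger part of the RNA in Dox cells than in control cells in each of the 4 compared classes. Over all cells the 77 genes gave 15.7% of UMIs in the control, 29.1% in Dox 1 and 29.2% in Dox 2. In supporting cell-like cells the share of the UMI sum was 11.8% in the control, 31.5% in Dox 1 and 31.4% in Dox 2. The glia-like sums held 9.49%, 26.2% and 21.5%. Fibroblast-like sums started higher, at 21.03%, and reached 35.1% and 32.8%. Macrophage-like sums held 18.4% in the control, 19.0% in Dox 1 and 26.7% in Dox 2, so Dox 1 lay next to the control there. In that control 3 of the 23 cells held 50.6% of the UMIs, with a family share of 22.9% against 13.9% in the other cells. Outside the 3 deepest cells of each library the macrophage-like shares were 13.9%, 18.2% and 28.9%. In fibroblast-like cells the 3 deepest cells held 43.6% of the control and 57.9% of the Dox 1 UMIs, and outside the 3 deepest cells of each library the shares were 17.4%, 38.2% and 33.0%. Counting error adds at most 0.161 percentage points on either side of these shares (95% Wilson intervals), and an exact permutation test over 1 control and 2 Dox libraries cannot give a p below 0.333, so no test of the shares was made.

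Single cells showed the same order. The median share per cell in supporting cell-like cells was 16.8% in the control (33 cells, interquartile range 12.9% to 26.8%), 29.6% in Dox 1 (62 cells, 22.8% to 34.4%) and 29.4% in Dox 2 (33 cells, 19.6% to 36.2%). Control and Dox cells overlapped: 82.3% of Dox 1 and 81.8% of Dox 2 cells lay above the control median. The groups also differed in depth, with median UMIs of 1590, 8206.5 and 14149, and 9 of the 33 control cells, 2 of 62 and 5 of 33 Dox cells were low-depth copies. Without the copies the medians were 14.4%, 29.8% and 30.5%, and among cells with at least 10000 UMIs they were 11.5% (10 cells), 31.8% (28 cells) and 30.4% (18 cells), so the gap was wider in deep cells. Cells with little Malat1 were 36.4%, 54.8% and 42.4% of the class, and without them the medians were 20.6%, 27.9% and 27.6%, a narrower gap.

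Glia-like cells, which held no copies, separated most cleanly. Their medians were 7.73% in the control (26 cells, 6.41% to 9.62%), 24.5% in Dox 1 (34 cells, 19.0% to 29.7%) and 20.4% in Dox 2 (43 cells, 13.2% to 25.4%). All 34 Dox 1 cells and 95.3% of the Dox 2 cells lay above the control median, although 1 control cell reached 33.4%. Depth ran less unevenly here, with median UMIs of 10336.5, 19554.5 and 11651. Macrophage-like medians were 14.4% (23 cells), 20.1% (49 cells) and 26.6% (28 cells), the Dox libraries lying farther from each other than Dox 1 from the control. Fibroblast-like medians were 12.9% (33 cells), 26.2% (22 cells) and 33.3% (88 cells). Their control cells spread widely, from 0.515% to 54.9%, and the median UMIs were 3554, 1480 and 32163.5. Leaving out the copies (8 of the 22 Dox 1 cells) gave 12.8%, 37.6% and 34.0%. A further cluster, led by Efemp1, Igf1 and Prg4, held 83 control cells with a median of 17.6% but only 1 and 2 Dox cells, and it stayed unnamed. When the members were among the clustering genes, a cluster with Prg4, Pdgfra and Dcn was named fibroblast-like, and the class then held 111 control, 13 Dox 1 and 87 Dox 2 cells with medians of 17.0%, 22.7% and 33.6%.

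**Figure D1:**
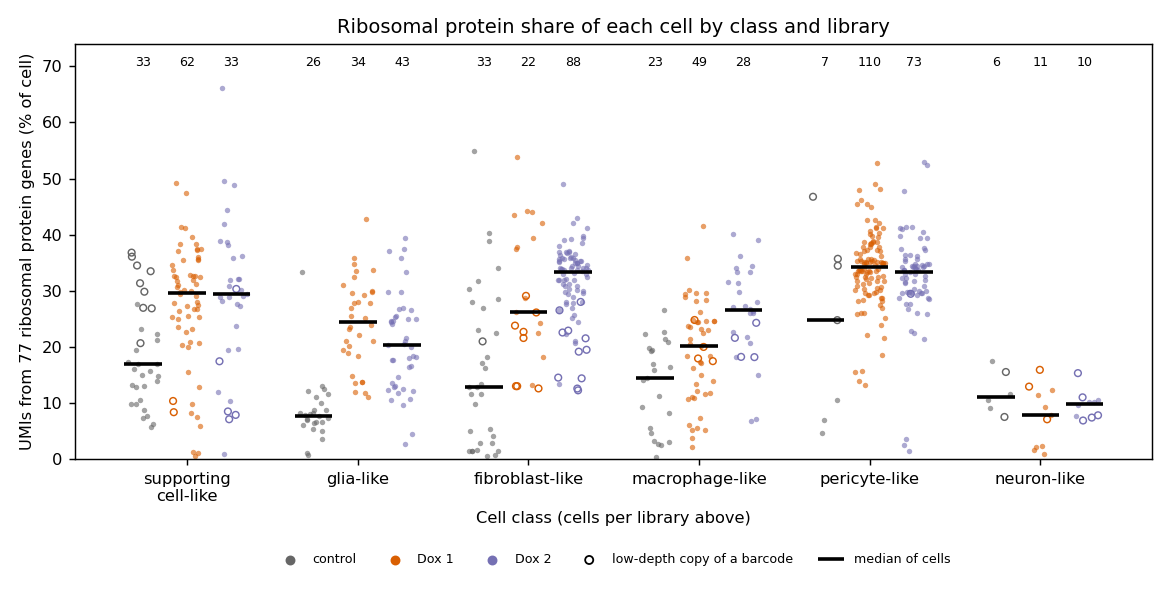
Share of each cell's UMIs from the 77 ribosomal protein genes (vertical axis, percent) by cell class and library (control grey, Dox 1 orange, Dox 2 violet). Each point is a cell, open points are low-depth copies of barcodes and bars are medians. The glia-like medians are 7.73%, 24.5% and 20.4%, while the neuron-like medians are 11.03%, 7.78% and 9.80%.

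Gene by gene, nearly the whole family rose in supporting cell-like cells. With edgeR's quasi-likelihood test on the UMI sums, 76 of the 77 genes rose and none fell (called where the adjusted p was at most 0.05), against 6.09% of all 8961 genes tested that rose. The median log2 fold change of the 77 was 1.96, with quartiles of 1.71 and 2.10, beside 0.02 over all genes tested. Each of these tests rests on 1 control and 2 Dox libraries with 1 residual degree of freedom. Thinning each cell of at least 1000 UMIs to that depth (26, 52 and 28 cells) brought the median down to 0.89. In that run 60 of 76 tested members were called, where 78 of 530 genes rose. Scaling by total counts gave 1.47 with 76 called, where 388 of 8961 genes rose and the median of all genes was -0.47. In the control, 3 of the 33 cells held 44.1% of the class's UMIs, and the family took 8.30% of the UMIs in those 3 cells against 14.5% in the others. Without the copies the median was 2.05 with 76 called, where 372 of 8925 genes rose.

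The largest rise belonged to Rpl10a, a protein of the stalk at the side of the large subunit where used tRNA leaves. The libraries read the tail end of each transcript, so levels in CPM are not divided by gene length. The level of Rpl10a was 574 CPM in the control, 4004 in Dox 1 and 4331 in Dox 2. Both Dox libraries lay far above the control, a log2 fold change of 2.86 ± 0.18 (SE; edgeR adjusted p = 6.08e-07). Rpsa, a small subunit protein also known as a laminin receptor, stood at 823, 5428 and 4677 CPM (2.62 ± 0.18, adjusted p = 6.08e-07). Rps18, which sits in the head of the small subunit, stood at 550, 3567 and 3173 CPM (2.62 ± 0.19, adjusted p = 7.77e-07). Rpl36a, an X-linked gene of the large subunit, stood at 566, 3405 and 3288 CPM (2.56 ± 0.19, adjusted p = 7.77e-07). In these 4 genes the Dox libraries differed from each other far less than from the control.

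At the other end stood genes of very small proteins. Rps29 gave 3076 CPM in the control, 6167 in Dox 1 and 5444 in Dox 2 (log2 fold change 0.92 ± 0.15, adjusted p = 0.00112). Rps27, which carries a zinc finger, gave 1751, 3666 and 3493 CPM (1.03 ± 0.16, adjusted p = 0.000724). Rpl41, the smallest ribosomal protein with 25 codons, gave 3431, 7682 and 7031 CPM (1.10 ± 0.14, adjusted p = 0.000137). These 3 rose too, by less than the family median of 1.96. Rpl29 did not pass the test, at 23.8, 54.0 and 23.3 CPM from 9, 102 and 17 UMIs (0.81 ± 0.59, adjusted p = 0.453), and the Dox libraries lay on both sides of the control.

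Counts for Rpl29 and Rpl13a need care. Over all cells Rpl29 had 2041 UMIs in the 3 libraries and Rpl13a 33900. Ribosomal protein genes have many processed pseudogenes, and the treatment of reads that such copies share is not given in the sources used.

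**Figure D2:**
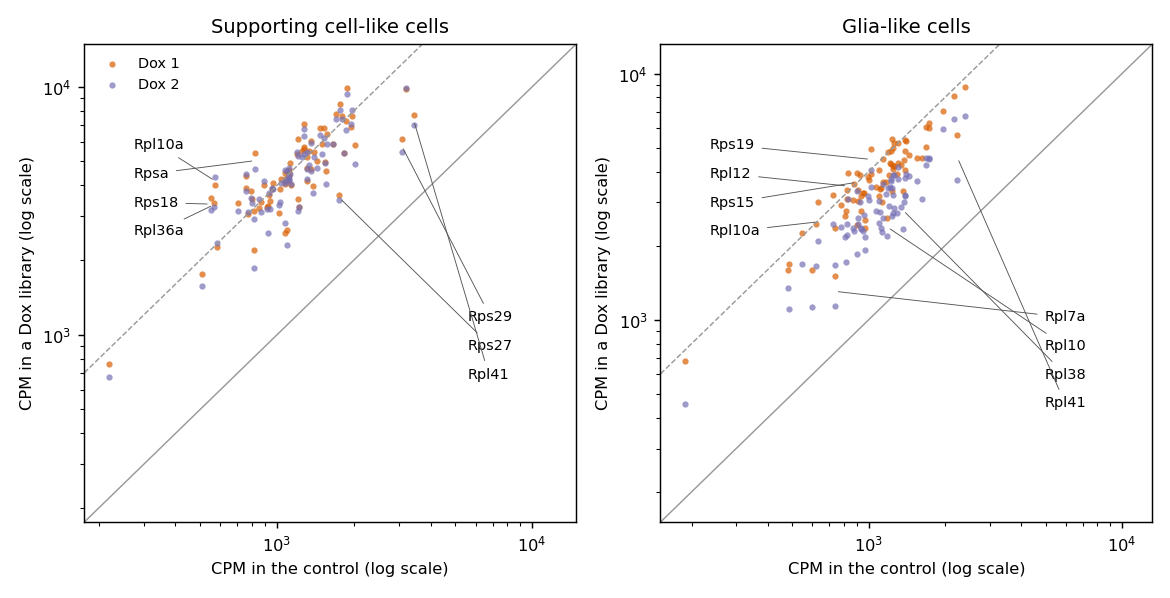
CPM of 76 of the 77 genes (Rpl29, under 100 CPM, is left out) in the control (horizontal) and in each Dox library (vertical), both on log scales, for supporting cell-like and glia-like cells. The solid line marks equal levels and the dashed line a level 4 times higher. Rpl10a at 574 against 4004 and 4331 CPM lies above the dashed line, and Rpl41 at 3431 against 7682 and 7031 CPM lies between the lines.

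By role, the small and large subunits moved together. In supporting cell-like cells all 31 small subunit genes rose (median 1.98, range 0.92 to 2.62), as did 45 of the 46 large subunit and stalk genes (median 1.87, range 0.81 to 2.86). The ratio of small to large subunit UMIs changed little, at 0.773 in the control, 0.837 in Dox 1 and 0.811 in Dox 2. Among small subunit genes, Rps6, whose protein is the classical substrate of the S6 kinases, went from 799 CPM to 3530 and 3389 (2.11 ± 0.18). Rps3, which lies at the mRNA entry and also has a part in DNA repair, went from 1254 to 5487 and 5224 CPM (2.09 ± 0.16). Rps19 and Rps26, known from Diamond-Blackfan anaemia, had log2 fold changes of 2.07 ± 0.17 and 2.24 ± 0.17. Rps14 had 1.90 ± 0.15 and Rps27a, made as a fusion with ubiquitin, 1.84 ± 0.15. All 6 passed the test, with adjusted p-values between 7.77e-07 and 1.72e-06.

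Large subunit genes spread more. Rpl3, whose protein reaches to the peptidyl transferase centre, rose from 757 CPM to 4388 and 4462 (2.55 ± 0.18). Rpl5 and Rpl11, which as free proteins bind Mdm2 and so connect ribosome assembly to p53, rose by 1.83 ± 0.18 and 1.99 ± 0.17 on the log2 scale. Rpl22 had 2.01 ± 0.18 and Rpl39, a protein of the exit tunnel, 1.76 ± 0.16. Rpl10, which joins the large subunit late, had 1.43 ± 0.17, and Rpl38, known for its part in patterning of the axial skeleton, 1.48 ± 0.17. Each of these 7 passed the test. The stalk genes, whose proteins recruit the translation factors, rose by 2.06 ± 0.17 (Rplp0), 1.62 ± 0.14 (Rplp1) and 1.83 ± 0.18 (Rplp2). Rplp1 stood among the highest levels of the class, at 3217 CPM in the control, 9796 in Dox 1 and 9921 in Dox 2. In the control Rpl41 (3431 CPM) lay above it, and in both Dox libraries Rplp1 lay above Rpl41 (7682 and 7031 CPM).

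Glia-like cells moved in the same direction with a larger spread between the Dox libraries. There 71 of the 77 genes rose and none fell, against 5.21% of all 7546 genes tested that rose, and the median log2 fold change was 1.60 beside 0.03 over all genes. Dox 1 lay above Dox 2 for every one of the genes named next. Rps19 led with 1022 CPM in the control, 4953 in Dox 1 and 4055 in Dox 2 (2.14 ± 0.48, adjusted p = 0.000482). Rpl12, a large subunit protein at the base of the stalk, gave 831, 3932 and 3098 CPM (2.08 ± 0.46, adjusted p = 0.000366). Rps15 gave 902, 3945 and 3326 CPM, and Rpl10a gave 633, 3007 and 2080 CPM, each with 2.01 on the log2 scale. The genes not called were Rpl7a (735, 1504 and 1133 CPM), Rpl10 (1183, 2590 and 2193 CPM), Rpl38 (1365, 3339 and 2334 CPM), Rpl41 (2239, 5645 and 3696 CPM), Rps29 (1621, 4539 and 3090 CPM) and Rpl29, at 13, 28 and 8 UMIs. In all of these but Rpl29 both Dox libraries still lay above the control, so that this held for 76 of the 77 members, against 40.4% of all genes tested. With DESeq2's size factors in place of TMM the count of calls fell to 33, where 153 of 7546 genes rose. The median of the 77 genes was 1.59 there.

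Fibroblast-like cells had a median log2 fold change of 0.94 over the 77 genes beside 0.04 over all genes, and no member was called at an adjusted p of 0.05. Few genes of any kind were: 0.0956% of the 7326 tested rose. By unadjusted p, 65 of the 77 passed and rose, against 17.6% of all genes that passed in either direction. Both Dox libraries lay above the control for 76 of the 77, against 39.9% of all genes. The count of calls moved with the settings, from 0 with DESeq2 to 46 without the filter on low counts and 66 in thinned cells. Of all genes tested, 11 of 7326, 433 of 14872 and 83 of 580 rose in those runs. Rpl4 showed the largest value, at 794, 2338 and 1960 CPM (1.43 ± 0.31, adjusted p = 0.126), followed by Rpl7, Rpl14 and Rps3. The smallest values were those of Rpl29 (-0.34), Rpl35 (0.42), Rpl27 (0.48) and Rpl10 (0.49).

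In macrophage-like cells no member was called by edgeR or DESeq2, and the background was 0.232% of 7745 genes that rose. By unadjusted p 0 members passed and rose, against 7.08% of all genes that passed in either direction. The median was 0.39 beside 0.05 over all genes. It was 0.61 without Dox 1 and 0.10 without Dox 2, so most of it came from Dox 2. Rpl15 illustrates this, at 1485 CPM in the control, 1861 in Dox 1 and 3073 in Dox 2. Rps6 gave 1683, 2002 and 3135 CPM, while Rps27 gave 2361, 1968 and 2415 CPM, with the Dox libraries on both sides of the control, and Rps28 2216, 2038 and 2180 CPM, with both below it. Of the 77 genes, 54 were higher in both Dox libraries than in the control, against 35.7% of all genes. At Leiden resolution 2 a cluster of 29 cells led with S100a9, S100a8, Ngp and Retnlg and was named neutrophil lineage. The macrophage-like class then held 19, 42 and 12 cells in the control, Dox 1 and Dox 2, in place of 23, 49 and 28. Its median was 0.38 with 0 members called, where 78 of 6316 genes rose. The part of neutrophil lineage cells in the gap between the Dox libraries was not tested.

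Over all cells, where the makeup of cell types also enters, 75 of the 77 genes rose and none fell, against 9.35% of the 15426 genes tested that rose. The median was 1.24 beside -0.01 for all genes. Rpl10a was again the largest (1099, 3631 and 3919 CPM; 1.78 ± 0.14, adjusted p = 0.0203). Rps27 (2047, 3044 and 2925 CPM; 0.54 ± 0.12, adjusted p = 0.0561) and Rpl29 (34.6, 45.5 and 31.6 CPM; 0.15 ± 0.28, adjusted p = 0.718) were the members not called. Rplp1, Rpl41, Rpl13, Rps12 and Rpl23 were among the genes with the highest mean levels.

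**Figure D3:**
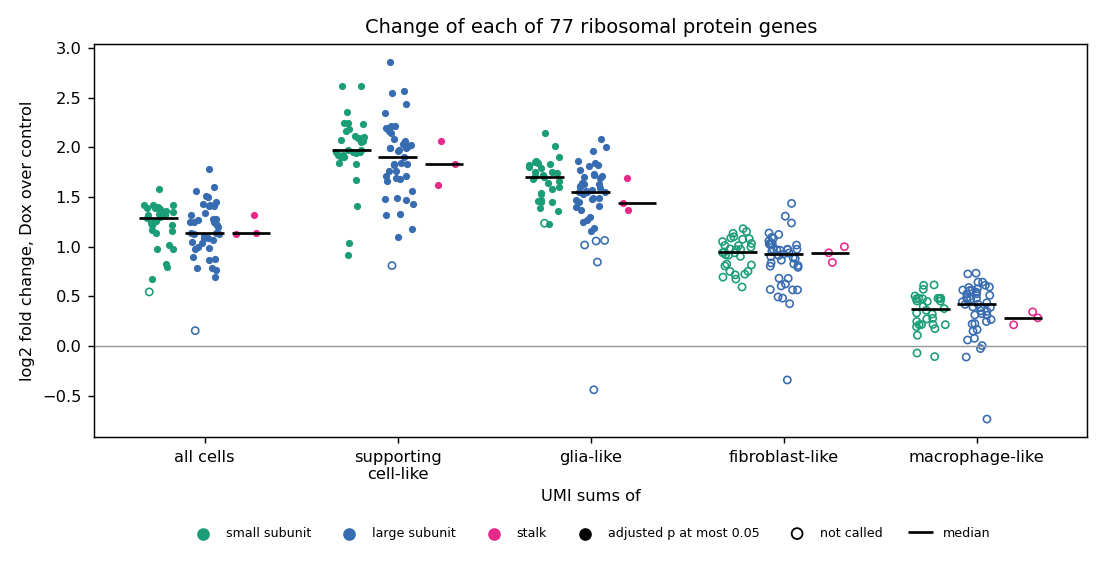
log2 fold change of Dox over control (vertical axis) for each of the 77 genes, by UMI sums of all cells and of 4 classes, with small subunit genes in green, large subunit genes in blue and stalk genes in pink. Filled points passed an adjusted p of 0.05 (edgeR), open points did not, and bars are medians. The family medians fall from 1.96 in supporting cell-like to 1.60 in glia-like, 0.94 in fibroblast-like and 0.39 in macrophage-like cells.

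The differences between classes were themselves tested in 1 fit with terms for library, class and their response, over 10863 genes and with 3 residual degrees of freedom. No member passed an adjusted p of 0.05 for any of the 6 pairs of classes. Macrophage-like against supporting cell-like cells gave a median difference of -1.45 over the 77 genes, with 70 members (8.59% of all genes) below 0.05 by unadjusted p and none of all genes called after adjustment (0%). Macrophage-like against glia-like cells gave -1.20, with 56 members (6.89% of all genes) by unadjusted p and 0% of all genes called. Fibroblast-like against supporting cell-like cells gave -1.01, with 37 (6.85%) and 0.046% called. Glia-like against supporting cell-like cells gave -0.28, with 1 (5.8%) and 0.00921% called. Fibroblast-like against glia-like cells gave -0.76, with 4 (7.08%) and 0.0921% called. Macrophage-like against fibroblast-like cells gave -0.42, with 0 (9.6%) and 0.156% called. The order of the class medians is therefore a description that did not pass the adjusted test gene by gene.

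Within the family the order of the genes by level was largely kept. Across the 77 genes the Pearson correlation of log2 CPM between the control and a Dox library lay between 0.91 and 0.98 in the 4 classes and all cells, and between Dox 1 and Dox 2 it was 0.993 in supporting cell-like cells. These correlations run across genes that share libraries and transcript lengths, and genes are not independent replicates. Supporting cell-like cells had the lowest values against the control, 0.92 and 0.91.

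Genes of short proteins had smaller log2 fold changes. The 9 members with at most 100 codons are Rpl41, Rpl39, Rps29, Rps28, Rpl38, Rps21, Rps27, Rpl37a and Rpl37. Their median log2 fold change over all cells was 0.80 against 1.25 for the other 68, and 1.47 against 1.99 in supporting cell-like cells. The same order held in glia-like (1.35 against 1.63), fibroblast-like (0.68 against 0.97) and macrophage-like cells (0.08 against 0.44). Over the 77 genes, the correlation of log2 coding length with log2 fold change was 0.51 over all cells, 0.45 in supporting cell-like, 0.21 in glia-like, 0.40 in fibroblast-like and 0.47 in macrophage-like cells, beside values between -0.07 and -0.01 over all genes tested. All classes share the same 3 libraries, so these are not separate observations of the relation.

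**Figure D4:**
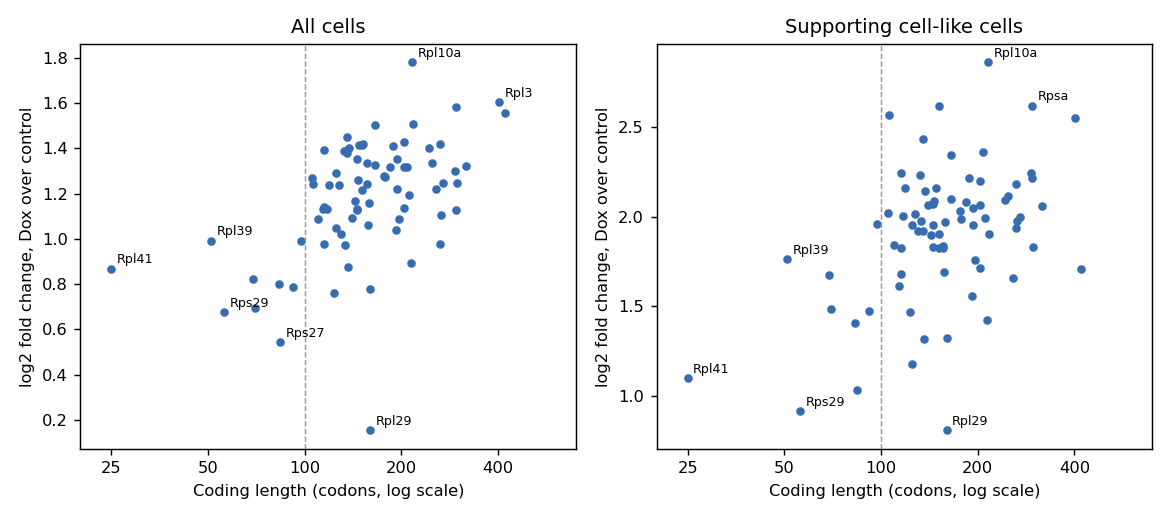
Coding length in codons (horizontal axis, log scale) against log2 fold change of Dox over control (vertical axis) for the 77 genes, over all cells and in supporting cell-like cells. The dashed line marks 100 codons, and the 9 genes to its left have medians of 0.80 and 1.47 against 1.25 and 1.99 for the other 68.

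The starts of these genes carry the sequence features for which the family is known. RefSeq promoter windows (GRCm38.p6, 250 bases before to 50 after the start) matched 66 of the 86 members, 57 of them among the 77. Among the genes described above, Rpl3, Rpl7, Rpl29, Rplp1, Rps14, Rps27a and Rps29 were not matched. A run of at least 7 C or T on the transcribed strand that overlaps the 20 bases on either side of the start was found in 32 of the 57 (56.1%) and in 30.2% of all 27025 promoters. On either strand of the whole window, CCGGAAG was found in 40.4% of the 57 against 9.12% of all, TCTCGCGA in 17.5% against 1.08%, AAGATGGC in 7.02% against 2.88% and TATAAA in 8.77% against 14.2%. CACGTG, the canonical E-box that MYC binds, was found in 8.77% against 7.24%. These matches are descriptions of letters and not binding sites. A window without a run does not show that the mRNA lacks the tract.

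Windows from 40 bases before to 15 bases after the start are shown for genes that set the range of the response, written in the direction of transcription with any pyrimidine run of at least 7 at the start in capitals. Rps18 and Rpsa had large rises in supporting cell-like cells, Rps27 and Rpl41 small ones, Rps6 had a value close to the upper quartile, and Rpl22l1 is the highest of the like-paralogs described next.
Rps18 (chr17:33955651-33955705, minus strand): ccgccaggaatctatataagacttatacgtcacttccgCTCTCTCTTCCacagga
Rpsa (chr9:120127726-120127780, plus strand): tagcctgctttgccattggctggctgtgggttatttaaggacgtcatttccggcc
Rps6 (chr4:86857353-86857407, minus strand): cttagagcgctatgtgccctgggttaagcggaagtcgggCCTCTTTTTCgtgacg
Rps27 (chr3:90213634-90213688, minus strand): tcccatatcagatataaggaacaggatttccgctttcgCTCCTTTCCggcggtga
Rpl41 (chr10:128549154-128549208, minus strand): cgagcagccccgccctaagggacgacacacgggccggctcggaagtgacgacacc
Rpl22l1 (chr3:28805468-28805522, plus strand): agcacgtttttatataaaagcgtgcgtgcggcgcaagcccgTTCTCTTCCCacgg

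A run of pyrimidines thus stands at the window start of Rps18, among the largest rises, and of Rps27, among the smallest. The windows of Rpsa and Rpl41 show none of that length. Only a single window per gene was searched, and its start can differ from that of the mRNA. In GENCODE M21 Rpsa starts at chr9:120127689 and Rpl41 at chr10:128549305, outside the windows shown. Among the genes shown, Rps27 alone has its GENCODE start inside the window. The medians that follow therefore compare windows, not mRNAs with and without the tract. In supporting cell-like cells the 32 members with such a run had a median log2 fold change of 1.97 and the 25 without it 1.94. The medians with and without a run were 1.59 and 1.55 in glia-like, 0.93 and 0.91 in fibroblast-like and 0.42 and 0.35 in macrophage-like cells, and 1.28 and 1.13 over all cells. The 5 members with CACGTG had 1.91 in supporting cell-like cells and the 52 without it 1.97, and over all cells the medians were 1.13 and 1.22.

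The like-paralogs fell into expressed genes that rose, an expressed copy that did not pass the test, and genes with almost no UMIs. Rpl22l1, which can take the place of Rpl22, stood over all cells at 449 CPM in the control, 1100 in Dox 1 and 1280 in Dox 2 (1.41 ± 0.16, adjusted p = 0.0228). Its partner Rpl22 stood at 1094, 2545 and 2610 CPM (1.24 ± 0.13), so both rose. In supporting cell-like cells Rpl22l1 went from 265 CPM to 912 and 737 (1.64 ± 0.24, adjusted p = 0.000415), and in glia-like cells from 213 to 600 and 496 (1.36 ± 0.36, adjusted p = 0.00408).

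Rps27l, a p53-responsive relative of Rps27, stood at 445, 1021 and 1171 CPM over all cells (1.30 ± 0.16, adjusted p = 0.023), while Rps27 itself did not pass the test there. Rps27l had 423, 1072 and 936 CPM in supporting cell-like cells (1.25 ± 0.22, adjusted p = 0.00171) against 1.03 for Rps27. In glia-like cells it gave 664, 1703 and 1080 CPM (1.07 ± 0.38, adjusted p = 0.0535). Rpl36al stood at 444, 753 and 714 CPM over all cells (0.72 ± 0.13, adjusted p = 0.0364) beside 1077, 2602 and 2497 CPM for Rpl36a (1.24 ± 0.13). In supporting cell-like cells Rpl36al rose by 1.49 ± 0.23 on the log2 scale and Rpl36a by 2.56 ± 0.19, and in glia-like cells Rpl36al did not pass (0.36 ± 0.34, adjusted p = 0.58). Rpl7l1, a nucleolar assembly factor more than a ribosome component, rose from 41.2 to 86.1 and 94.8 CPM over all cells (1.13 ± 0.16, adjusted p = 0.0272). It passed in glia-like cells as well (40.1, 85.9 and 112.9 CPM; 1.29 ± 0.44, adjusted p = 0.0398). At 34.4, 83.6 and 69.8 CPM in supporting cell-like cells it did not pass (1.18 ± 0.40, adjusted p = 0.0822).

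Rps27rt, a retrogene copy of Rps27 on chromosome 9 (chr9:114982366-114982739), gave 217, 248 and 182 CPM over all cells (-0.02 ± 0.23, adjusted p = 0.964). Its sequence resembles Rps27, so reads could be split between the genes. Rpl3l, the relative of Rpl3 in striated muscle, had 1, 3 and 4 UMIs. Rpl39l, known from testis, had 2, 0 and 14 UMIs, and Rpl10l, the testis relative of Rpl10, had 0, 0 and 1. Rpl3l, Rpl39l and Rpl10l were too low to be tested. Rps19bp1, the gene that the symbol rule took without being a ribosomal protein, stood at 51.4, 77.8 and 85.5 CPM (0.67 ± 0.16, adjusted p = 0.058).

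**Figure D5:**
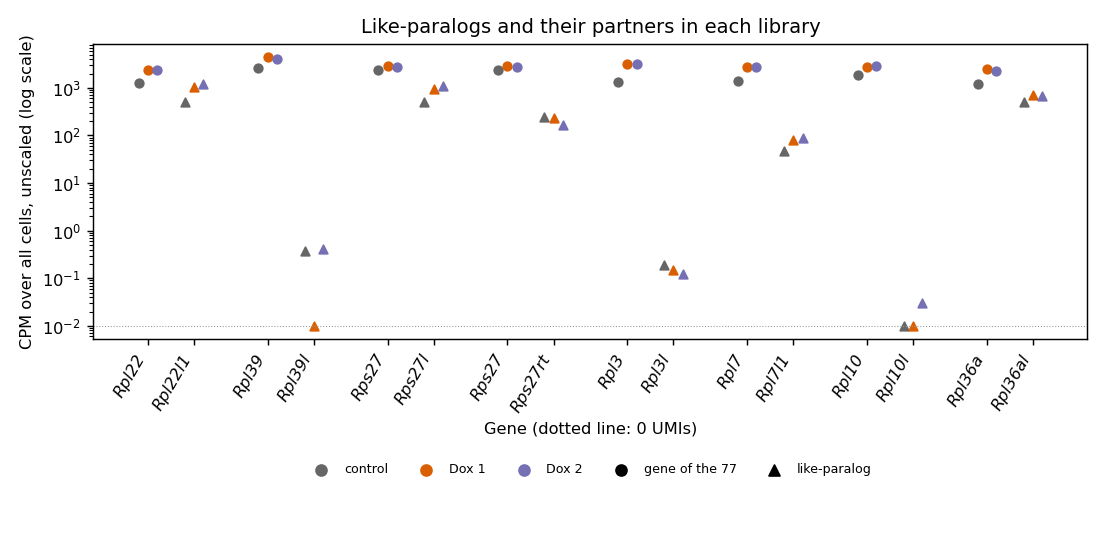
Unscaled CPM over all cells (vertical axis, log scale) of each like-paralog (triangles) and its partner (circles) in the control, Dox 1 and Dox 2. Rpl39l, Rpl3l and Rpl10l have 0 to 14 UMIs per library, and the dotted line marks 0 UMIs.

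Other genes of the translation machinery were read from 4 lists. The 3 ribosomal proteins outside the symbol rule, Rack1 among them, all rose in supporting cell-like cells (median 1.38), against 6.09% of all genes. Rack1, which docks signalling proteins on the small subunit, went from 434 CPM to 2086 and 2152 (2.29 ± 0.20, adjusted p = 1.99e-06). Over all cells 2 of the 3 rose (9.35% of all genes did) and in glia-like cells 1 (5.21%). Among genes, most of them translation genes, whose transcripts also begin with a pyrimidine tract, 15 of 17 were tested, Gas5 and Snhg1 not. In supporting cell-like cells all 15 rose (median 1.70), where 6.09% of all genes did. The 15 included Eef1b2, a subunit of the elongation factor exchange complex (458, 3955 and 3290 CPM; 2.99 ± 0.20, adjusted p = 6.08e-07), Eef1a1 (2201, 7335 and 7560 CPM; 1.76 ± 0.15, adjusted p = 1.72e-06) and the nucleolar protein Npm1 (431, 2239 and 2147 CPM; 2.35 ± 0.20, adjusted p = 1.74e-06). Of the same 15, 14 rose over all cells (9.35% of all genes did) and 11 in glia-like cells (5.21%). In fibroblast-like cells 1 rose (0.0956% of all genes) and 11 passed by unadjusted p (17.6%). In macrophage-like cells 0 passed by either p, where 0.232% of all genes rose and 7.08% passed by unadjusted p.

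Chaperones, escorts and assembly factors of ribosomal proteins were read from 8 genes (Grwd1, Heatr3, Pdcd2, Pdcd2l, Tsr2, Bccip, Ltv1 and Nvl). Of the 8, 0 were called by edgeR in supporting cell-like cells (6.09% of all genes rose) and 0 passed by unadjusted p (23.2% of all genes), with a median log2 fold change of 0.11. In glia-like cells 1 was called (5.21% of all genes rose) and 3 passed by unadjusted p (21.5% of all genes), with a median of 0.81. The called gene was Heatr3, which escorts Rpl5 (12.4, 53.0 and 62.5 CPM). Over all cells 1 was called (9.35% of all genes rose) and 5 passed by unadjusted p (37.7% of all genes), also with a median of 0.81. There the called gene was Grwd1, which escorts Rpl3 (9.39, 25.02 and 28.1 CPM). Of 9 genes of signalling to these mRNAs, 2 rose in supporting cell-like cells, against 6.09% of all genes, both translation repressors that mTOR inactivates. Eif4ebp2 went from 23.8 to 78.9 and 73.9 CPM (1.68 ± 0.43, adjusted p = 0.0222). Eif4ebp1 had 1 UMI in the control and 180 in the Dox libraries, a ratio of 18.4 in unscaled CPM with a 95% counting interval of 3.27 to 732. Larp1 and Larp4 did not pass there. Over all cells 2 of the 9 rose (9.35% of all genes did), Eif4ebp2 and Larp4 (81.7, 142.9 and 168.1 CPM, log2 fold change 0.93 ± 0.17, edgeR adjusted p = 0.0384). By unadjusted p 6 of the 9 passed (37.7% of all genes), with a median of 0.56 over the 9. In glia-like cells 0 of the 9 were called (5.21% of all genes rose) and 1 passed by unadjusted p (21.5% of all genes).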

How the data were processed

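Members, gene lists, tests and named genes were chosen with earlier results of these data known. The deposited files hold UMI counts, a gene by barcode matrix for each library. The submitters' processing notes name the tools Seurat 3.2.2, STAR and Cell Ranger 5.0 and the build mm10, while version 3.1.0 stands in the matrix headers. The counting of introns is not stated in them. Barcodes under 200 genes or over 20% mitochondrial UMIs were dropped (149, 152 and 98). Scrublet marked 1, 0 and 1 doublets, which was read as a failed call, so that all cells stayed in. Cells were scaled to 10000 UMIs and clustered without members and mitochondrial genes (2000 variable genes, 30 components, 15 neighbours, Leiden resolution 1; scanpy 1.11.5, leidenalg 0.10.2), and a cluster was named where at least 3 markers were among its 25 leading genes. Clusters of low depth without such markers stayed unnamed.

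UMI counts were summed per class and library and tested with edgeR 4.0.16 (TMM, filterByExpr, quasi-likelihood F test, Benjamini-Hochberg over all genes tested, called at 0.05). CPM of tested genes is TMM-scaled, shares of UMIs are not. Nothing in the labels beyond pooled cultures separates the Dox libraries, and their spread, on which the p-values rest, may be technical. The pipeline was tested on simulated counts. Named genes were the 4 largest and 4 smallest changes per class with at least 50 UMIs, the 6 highest levels, a list fixed for roles, and all like-paralogs. A few genes that this rule or the lists take are not reported here by name. Alternatives were DESeq2 1.42.0 and its size factors, total count scaling, scaling on all other genes, no low-count filter, members among the clustering genes, resolution 2, libraries clustered alone, a strict filter (500 genes, 10% mitochondrial), cells with little Malat1 (under 0.1% of UMIs) left out, leaving out each Dox library and thinning to 1000 UMIs. Thinning left out cells under 1000 UMIs (87 control, 82 Dox 1 and 110 Dox 2). Leaving out low-depth copies and keeping only cells of at least 10000 UMIs were chosen after seeing the data. Gene positions are from GENCODE M21 (GRCm38). Intervals cover counting error only.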

Additional observations from a re-analysis of the deposited data

Results flagged for a closer look

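Neuron-like cells, named from Stmn2, Nefl, Nefm, Snap25 and Elavl4, went the other way from the 4 compared classes. Their median share of UMIs from the 77 ribosomal protein genes was 11.03% in the control (6 cells), 7.78% in Dox 1 (11 cells) and 9.80% in Dox 2 (10 cells), lower in both Dox libraries, while supporting cell-like, glia-like, macrophage-like and fibroblast-like medians were higher in both. The difference was not tested, since the class has under 20 cells in each library. Low-depth copies made up 2, 3 and 5 of these cells, and without them the medians were 11.03%, 5.04% and 10.1%. With the strict filter they were 10.5% (5 cells), 10.3% (8 cells) and 10.1% (8 cells), so the libraries lay close together. Thinned to 1000 UMIs they were 11.25%, 9.30% and 10.5%. Notch1 was at 3, 5 and 1 UMIs in the summed neuron-like cells (9.79, 13.2 and 3.09 unscaled CPM) and Myc at 21, 11 and 7 UMIs, so neither transcript was higher in both Dox libraries. The part of these values in the result was not tested. With low-depth copies kept, 3 low-depth clusters without a name also had lower shares in both Dox libraries. Without the copies only the one led by Hspa1a, Hspa1b and Gadd45g did, as given under the other observations.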

How the results depend on the processing

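No paired analysis was possible with 1 control library against 2 Dox libraries. In supporting cell-like cells 60 to 76 members were called in every alternative run. Among all genes tested, the share that rose ran from 204 of 8961 with DESeq2 to 78 of 530 in thinned cells. The members' median log2 fold change (1.96) was 1.47 with total count scaling, 1.91 with scaling on all other genes, 2.10 with the strict filter, 0.89 in thinned cells and 2.05 without the low-depth copies. The gap in median share per cell, the mean of both Dox medians minus the control in percentage points, was 12.7 there and became 15.7 without copies, 19.6 in cells of at least 10000 UMIs, 15.9 with the strict filter, 7.09 without cells of little Malat1, 15.0 in thinned cells, 13.2 with members among the clustering genes and 13.1 at resolution 2. Glia-like calls (71) fell to 33 with DESeq2's size factors, where 153 of 7546 genes rose. The glia-like median (1.60) was 1.33 with total count scaling. In macrophage-like cells the median (0.39) was 0.85 in thinned cells, with 0 members called beside 9 of 448 genes that rose. Fibroblast-like calls (0) became 46 without the low-count filter, 20 with members among the clustering genes, 40 without cells of little Malat1 and 66 in thinned cells. Among all genes tested, 433 of 14872, 394 of 10964, 90 of 7011 and 83 of 580 rose in these runs. In the main run 7 of 7326 rose. The median of the members (0.94) was 0.70 with total count scaling, 1.01 without the low-count filter, 1.03 without cells of little Malat1, 1.07 in thinned cells, and 0.84 to 0.93 with 1 Dox library left out. The gap in share (16.9) was 23.0 without copies, 22.5 in deep cells, 23.0 in thinned cells and 11.1 with members among the clustering genes. Over all cells the median (1.24) was 0.94 with total count scaling, 1.05 in thinned cells and 1.21 to 1.32 with 1 Dox library left out. The gap in share (10.9) was 14.1 without copies, 13.9 in deep cells, 13.4 with the strict filter, 10.1 without cells of little Malat1 and 13.9 in thinned cells. No median or gap changed sign. The causes were not tested.

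Of 26 named gene results, 2 changed sign in supporting cell-like cells, neither of them called. Rps27rt was -0.26 with total count scaling and -0.042 to 0.43 with 1 Dox library left out, and Rpl29 was -0.034 to 1.18. With each library clustered alone no supporting cell-like control cells were named, so that setting gave no value there. A test with 1 Dox library against 1 control has no residual degrees of freedom and was not made. Counts limit Rpl29, Rpl3l, Rpl39l and Rpl10l, and the lone control library limits every test.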

Other observations

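Of the 8 clusters without a cell type name that had cells in all 3 libraries, 5 had higher median shares in both Dox libraries and 3 had lower ones. Those with deep cells in all 3 libraries were among the 5. The epithelial cluster led by Vmo1, Gpx3 and Lypd2 had median shares of 13.9% (15 cells), 27.4% (24 cells) and 27.6% (101 cells) in the control, Dox 1 and Dox 2. The cluster led by Gabrp, Prss36 and Alox15 had 12.1% (3 cells), 26.4% (36 cells) and 28.5% (94 cells), and the one led by Epyc, Lum and Aqp4 had 11.9% (10 cells), 27.7% (40 cells) and 29.0% (73 cells). None of these 3 clusters had fewer than 32015 median UMIs in any library. The rest of the 5 leaned on low-depth copies. In the cluster led by Gabrp, Alox15 and Galm, 9 of the 10 control cells were copies. The one led by Efemp1, Igf1 and Prg4 had 1 Dox 1 cell, a copy, and 2 Dox 2 cells, 1 of them a copy. Without copies the former kept 1 control cell and the latter no Dox 1 cell, too few to judge the direction. The 3 clusters with lower shares under Dox were shallow, with median UMIs between 650 and 2424 per library. The one led by Hspa1a, Hspa1b and Gadd45g, with Notch1 among its leading genes, had 23.7% (30 cells), 16.6% (36 cells) and 16.3% (45 cells), and 22.4%, 17.1% and 16.5% without low-depth copies. The one led by Cst6, Cnmd and Vmo1 had 19.99% (14 cells), 13.8% (22 cells) and 12.7% (27 cells), where 18 and 20 of the Dox cells were copies. Without the copies it had 29.9% in 4 Dox 1 cells and 2.64% in 7 Dox 2 cells. The one led by Gm26917, Hist1h3c and Lars2 had 27.2% (56 cells, 54 of them copies), 26.4% (36 cells) and 24.7% (98 cells). Leaving its copies out gave 0.393% (2 cells), 27.8% (32 cells) and 24.6% (76 cells), with too few control cells to judge the direction. Clusters present in the Dox libraries alone with cell cycle genes among their leading genes had no control cells to compare with. The one with Mki67 and Cdk1 had medians of 27.4% in Dox 1 and 27.6% in Dox 2. The one with Mki67 and Knl1 had 26.6% and 27.4%. The one with Nusap1 and Cdk1 had 31.3% (6 cells) and 36.3% (13 cells), and all of its cells had little Malat1. Whether the share goes with the cell cycle was not tested. A melanocyte marker cluster led by Dct, Pax3 and Mlana stayed low, at 12.04% in the control (14 cells) and 9.29% in Dox 1 (3 cells).

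Pericyte-like cells had medians of 24.8% (7 cells), 34.2% (110 cells) and 33.4% (73 cells). Of the 7 control cells, 4 were low-depth copies, and the other 3 had a median of 6.96%.

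In fibroblast-like cells Notch1 stood at 13.8, 186 and 15.4 unscaled CPM, while the family's share of the sums was 21.03%, 35.1% and 32.8%. Dox 2 thus had a Notch1 level next to the control and a share next to Dox 1, from 45 Notch1 UMIs against 7 in the control and 63 in Dox 1. Myc stood at 35.6, 62.1 and 50.4 unscaled CPM there.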
